A study of Mus musculus with 9 samples.

Results

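The Dlk1-Dio3 region of distal mouse chromosome 12 holds one of the largest miRNA clusters of the mammalian genome. A list of 37 mature miRNAs of the region was looked up by name among the 1881 mouse miRNAs of the array, and 36 of them had probes (mmu-miR-299a-5p had none). Of these 36 members, 5 (13.9%) were detected on at least 1 of 9 arrays, against 446 of all 1881 miRNAs (23.7%). Only mmu-miR-494-3p was detected on all 9 arrays, and mmu-miR-370-3p was detected on 7. The other 3 detected members, mmu-miR-485-3p, mmu-miR-329-3p and mmu-miR-668-3p, were seen only on 1 or 2 arrays of high background, and 31 members were detected on none.

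The region is imprinted. The protein-coding genes Dlk1, Rtl1 and Dio3 are expressed from the paternal chromosome, and the long noncoding RNAs Meg3 (also called Gtl2), Rian and Mirg, as well as the miRNAs, are expressed from the maternal one. A mature miRNA guides Argonaute proteins to mRNAs that pair with its seed, bases 2 to 8. The miRNAs of the region are known for high levels in brain, placenta and embryo and for low levels in many adult tissues, and they were measured here in osteoblastic cells grown from marrow.

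Each array held the RNA of 1 sample of marrow cells from male C57BL/6 mice aged 8 weeks. The cells had been cultured for 7 days and then differentiated towards osteoblasts for 7 days. There were 3 arrays each for 0 Gy, 0.5 Gy and 1 Gy of alpha particles, the radiation of short range and dense ionization that alpha emitters deposit in bone, and the irradiated samples received 0.22 Gy per minute. Whether the replicates were separate mice or separate dishes is not stated in the labels, so p-values measure only how far these samples differ, which may be technical variation. How long after irradiation the RNA was taken is not stated either. By the file headers, slide 1 held arrays 1 and 3 of every dose and slide 2 held array 2 of 0 Gy. Slide 3 held array 2 of 0.5 Gy and array 2 of 1 Gy, and was scanned on another day than the other slides. Slide and scan day thus cannot be fully separated from dose.

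The mature sequences below are those of RefSeq (build GRCm38.p6), from 5′ to 3′, with the seed in capitals. They show the 2 members with a level on most arrays, the 3 detected only on arrays of high background, 4 that were detected on no array, and 2 further miRNAs of the region that were not on the list but could be tested.
mmu-miR-494-3p: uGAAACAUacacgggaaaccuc
mmu-miR-370-3p: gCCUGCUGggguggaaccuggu
mmu-miR-485-3p: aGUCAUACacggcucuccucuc
mmu-miR-329-3p: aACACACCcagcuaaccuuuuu
mmu-miR-668-3p: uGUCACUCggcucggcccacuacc
mmu-miR-434-3p: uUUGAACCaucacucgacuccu
mmu-miR-127-3p: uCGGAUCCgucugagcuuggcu
mmu-miR-134-5p: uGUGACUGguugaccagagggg
mmu-miR-376a-3p: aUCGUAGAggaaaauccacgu
mmu-miR-3072-5p: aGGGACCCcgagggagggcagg
mmu-miR-1906: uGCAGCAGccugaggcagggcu

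A mature sequence was found for 33 of the 36 members, and those 33 carried 33 different seeds, so no member shared its seed with another. The seeds of mmu-miR-494-3p, mmu-miR-370-3p, mmu-miR-485-3p and mmu-miR-668-3p occurred in no other miRNA of the array that had a sequence. The seed of mmu-miR-329-3p was shared with mmu-miR-362-3p, which was detected on no array. Although their seeds differ, mmu-miR-494-3p and mmu-miR-485-3p have a run of 9 bases in common, CAUACACGG, which starts within the seed of both, at base 6 of mmu-miR-494-3p and at base 4 of mmu-miR-485-3p. Of the other 1607 miRNAs with a sequence, 3 (0.187%) shared a run of that length with mmu-miR-494-3p.

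Detection was called from the spots. Each member had 270 spots over the 9 arrays, and the call for a probe was positive where at least 50% of its usable spots were well above background by the mark of the scanner software. Of the 31 undetected members, 1 of 8148 usable spots carried that mark, and it belonged to mmu-miR-134-5p on array 1 of 0 Gy. For mmu-miR-494-3p it was 265 of 265 spots. The spots of mmu-miR-370-3p carried the mark in 203 of 264 cases. Over the 36 members it was 551 of 9446 usable spots (5.83%), and over all 1881 miRNAs 40987 of 494195 (8.29%).

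The background of an array was read from the additive error of the scanner software, which is in the units of the signal. This error was 19.4 (array 1 of 0.5 Gy) and 11.2 (array 1 of 1 Gy) on the highest arrays and 1.60 to 2.83 on the other 7 arrays. The number of members detected was 4 (11.11%) on array 1 of 0.5 Gy and 2 (5.56%) on each other array. Of all 1881 miRNAs, 11.48% were detected on array 1 of 0.5 Gy and 7.66% to 12.44% on the other arrays. Array 1 of 0 Gy also stood apart: 44 of the 134 tested miRNAs (32.8%) were highest there after scaling. Differences against 0 Gy of the tested miRNAs of the region are also given without 1 or more of these 3 arrays. Correlations between miRNAs across arrays are also given without array 1 of 0 Gy, but not without the other 2. Of the 9 markers of stromal and osteoblast cells, 5 were detected (mmu-miR-199a-3p, mmu-miR-199a-5p, mmu-miR-214-3p, mmu-miR-125b-5p and mmu-miR-21a-5p), and their summed log2 level over the 9 arrays ran from 6.49 on array 1 of 0 Gy, through 8.38 on array 2 of 0 Gy, to 9.13 to 10.29 on the other 7. Of the myeloid markers 1 of 4 was detected (mmu-miR-223-3p), of the lymphoid markers 1 of 3 (mmu-miR-181a-5p), and of the erythroid and platelet markers 0 of 3. None of the 4 neuronal markers (mmu-miR-124-3p, mmu-miR-9-5p, mmu-miR-128-3p and mmu-miR-138-5p) was detected on any array, and their summed level was at the floor on all 9.

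**Figure D1:**
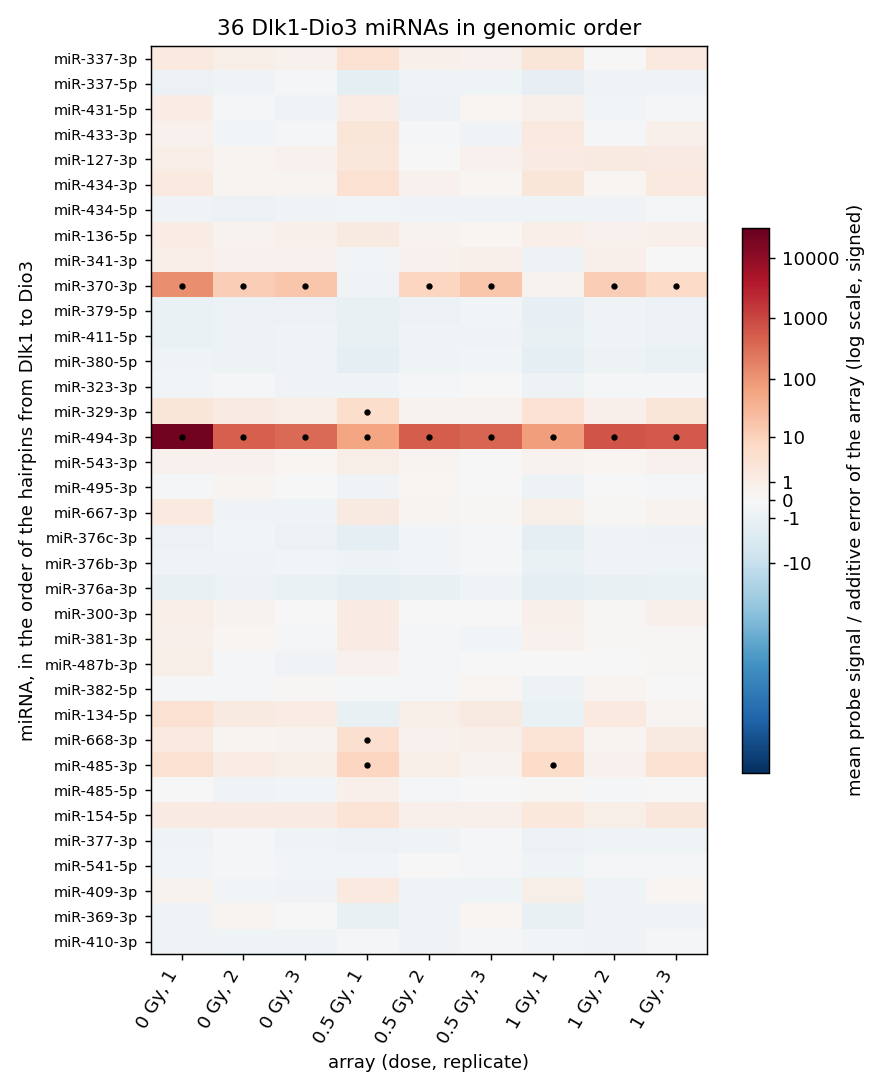
Mean probe signal of the 36 members on each of the 9 arrays, divided by the additive error of that array and drawn on a signed log colour scale, with members in the order of their hairpins from Dlk1 to Dio3 and a dot where the member was detected. The dots form a line for mmu-miR-494-3p on all 9 arrays and one for mmu-miR-370-3p on 7, while the signals of the 31 undetected members stayed between -1.78 and 3.95 errors.

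The members were sorted by the gene span they lie in or between. Of the 8 members within the span of Rtl1, none was detected: mmu-miR-337-3p, mmu-miR-337-5p, mmu-miR-431-5p, mmu-miR-433-3p, mmu-miR-127-3p, mmu-miR-434-3p, mmu-miR-434-5p and mmu-miR-136-5p. These lie antisense to Rtl1, and mmu-miR-127-3p is known to direct cleavage of the Rtl1 mRNA. Of the 2 members within the span of Rian, mmu-miR-370-3p was detected and mmu-miR-341-3p was not. Of the 20 members between Rian and Mirg, 4 were detected (mmu-miR-494-3p, mmu-miR-329-3p, mmu-miR-485-3p and mmu-miR-668-3p). The 16 undetected ones were mmu-miR-379-5p, mmu-miR-411-5p, mmu-miR-380-5p, mmu-miR-323-3p, mmu-miR-376a-3p, mmu-miR-376b-3p, mmu-miR-376c-3p, mmu-miR-381-3p, mmu-miR-487b-3p, mmu-miR-382-5p, mmu-miR-495-3p, mmu-miR-543-3p, mmu-miR-300-3p, mmu-miR-134-5p, mmu-miR-485-5p and mmu-miR-667-3p. Among them, mmu-miR-134-5p is known for its part in dendritic spines of neurons and the miR-376 group for editing of its precursors from adenosine to inosine. None of the 6 members within the span of Mirg was detected: mmu-miR-154-5p, mmu-miR-377-3p, mmu-miR-541-5p, mmu-miR-409-3p, mmu-miR-369-3p and mmu-miR-410-3p. The Rian and Rtl1 spans are read here without strand, and order and spans are those of the RefSeq gene table.

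The immediate neighbours of mmu-miR-494-3p gave far less signal on the arrays of low background. The hairpin Mir494 lies between Mir329 and Mir679. The other arm of the same hairpin, mmu-miR-494-5p, was detected on no array, with mean probe signals of 0.405 to 5.12 scanner units on the 7 arrays of low background, and so were mmu-miR-329-5p (0.112 to 2.36), mmu-miR-679-3p (-0.712 to 3.41) and mmu-miR-679-5p (-1.57 to -0.402). The member mmu-miR-329-3p, from the adjacent hairpin and detected only on array 1 of 0.5 Gy, read 0.779 to 7.02 units on those 7 arrays, the highest on array 1 of 0 Gy. The other arm of the miR-370 hairpin was detected on no array: mmu-miR-370-5p stayed between -0.935 and -0.166 on those 7 arrays. Since probes do not respond alike, these values show which of them gave a signal and not how the amounts compare.

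In all, 79 further mature miRNAs of the region were on the array, and 6 of them (7.59%) were detected on at least 1 array. Detection on 7 arrays, all but array 1 of 0.5 Gy and of 1 Gy, was found for mmu-miR-3072-5p, in the Mirg span, and for mmu-miR-1906, in the Meg3 span. The array cannot place mmu-miR-1906, since a second gene on chromosome X makes the same mature sequence. Of the remaining 4, mmu-miR-487b-5p was detected on 4 arrays: array 1 of each dose and array 3 of 1 Gy. Its signal was highest on the 2 arrays of high background. Detection of mmu-miR-432 was on 2 (array 1 of 0 Gy and array 2 of 1 Gy), and that of mmu-miR-540-5p and mmu-miR-1188-3p on the 2 arrays of high background.

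The level of mmu-miR-494-3p was high on 1 unirradiated array. Levels here are log2 values of the summed probe signal after division by the array's 75th percentile, with a floor of 3.57. The percentile was taken over the 45 probes that every array detected, and both probes of mmu-miR-494-3p were among them. It was 1462 scanner units on array 1 of 0 Gy and 618 to 815 on the other 8 arrays. On array 3 of 1 Gy it equalled the signal of the dimmer mmu-miR-494-3p probe, 815 units. At 0 Gy mmu-miR-494-3p stood at 16.04, 10.92 and 10.43 on arrays 1, 2 and 3. The values at 0.5 Gy were 11.39, 11.13 and 10.54, and those at 1 Gy were 11.01, 11.07 and 11.39. Array 1 of 0 Gy was the highest, by 4.65 over the next array, and the other 8 arrays, of all 3 doses, lay within 10.43 to 11.39. That gap was the largest among the 134 tested miRNAs, of which 13 (9.70%) were over 2 units higher on that array than on any other.

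Before scaling, the summed signal of mmu-miR-494-3p was 125044 scanner units on array 1 of 0 Gy and 1232 to 2778 on the other 8 arrays. Both of its probes took part. The brighter probe read 75350 and the dimmer one 49695 on array 1 of 0 Gy, a ratio of 1.52, while the ratio was 2.00 to 2.46 on the other arrays. Spots of 1 probe differed little on that array, with coefficients of variation of 3.35% and 1.76%, and no spot was marked as saturated. Over the 9 arrays the log2 signals of the 2 probes had a Pearson correlation of 1.00. Array 1 of 0 Gy, far above the others in both probes, weighs heavily in that value, which was not computed without it. The markers of stromal cells were at their lowest summed level on the same array (6.49, with 2 of 9 markers detected), and their part in this value was not tested.

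The share of mmu-miR-494-3p in the summed signal of all miRNAs shows the same array. It made up 53.0% of the signal on array 1 of 0 Gy, 5.96% on array 2 and 3.95% on array 3. At 0.5 Gy the share was 1.70%, 6.05% and 4.27%, and at 1 Gy it was 2.62%, 4.16% and 6.57%. The mean was 20.96% ± 27.7 (SD, n = 3) at 0 Gy, 4.01% ± 2.18 at 0.5 Gy and 4.45% ± 1.99 at 1 Gy. An exact two-sided permutation test gave p = 0.5 for each irradiated dose against 0 Gy, where 3 arrays against 3 cannot go below 0.1. Without array 1 of every dose the differences were 0.204 and 0.409 percentage points in the opposite direction. This is a share of signal and not of molecules.

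The miRNAs of the region that share bases with mmu-miR-494-3p gave little signal on that array. On array 1 of 0 Gy, where the 2 probes of mmu-miR-494-3p averaged 62522 units, the probes of mmu-miR-485-3p, with the run of 9 shared bases, averaged 10.5 units, and were not called detected. Those of mmu-miR-154-3p, another miRNA of the region with the same run, averaged 0.513. The member mmu-miR-323-3p, which shares the run UACACGG, averaged -1.02. Outside the region, mmu-miR-6391, with the run CACGGGA, averaged 76.6 units there and at most 19.7 on the other arrays. For mmu-miR-7088-5p (GGGAAAC) these values were 23.8 and 13.0, and for mmu-miR-6995-5p (GGGAAACC) 28.6 and 33.4. The probes of mmu-miR-6959-5p, with the run GGGAAACCU, averaged -1.37 there. All other miRNAs with a shared run of 7 bases or more averaged -3.70 to 5.30 units on that array. Cross-hybridization was not tested.

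The level of mmu-miR-370-3p was also highest on array 1 of 0 Gy. This miRNA, from the Rian span, stood at 8.58, 5.47 and 6.05 at 0 Gy. At 0.5 Gy it was at the floor of 3.57 on array 1 and at 5.06 and 5.92 on arrays 2 and 3. At 1 Gy it was at the floor on array 1 and at 5.21 and 4.89 on arrays 2 and 3. The values of 0 and 0.5 Gy overlapped, and those of 0 and 1 Gy did not. Groups without overlap were found for 13 of the 134 tested miRNAs (9.70%) between 0 and 1 Gy, 10 of them (7.46%) lower at 1 Gy. Its 2 probes read nearly alike, at 354 and 357 units on array 1 of 0 Gy and at 13.2 to 30.3 units on the other arrays that detected it. The values at the floor came from the 2 arrays of high background, where the summed signal was -15.9 and 9.0 units.

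**Figure D2:**
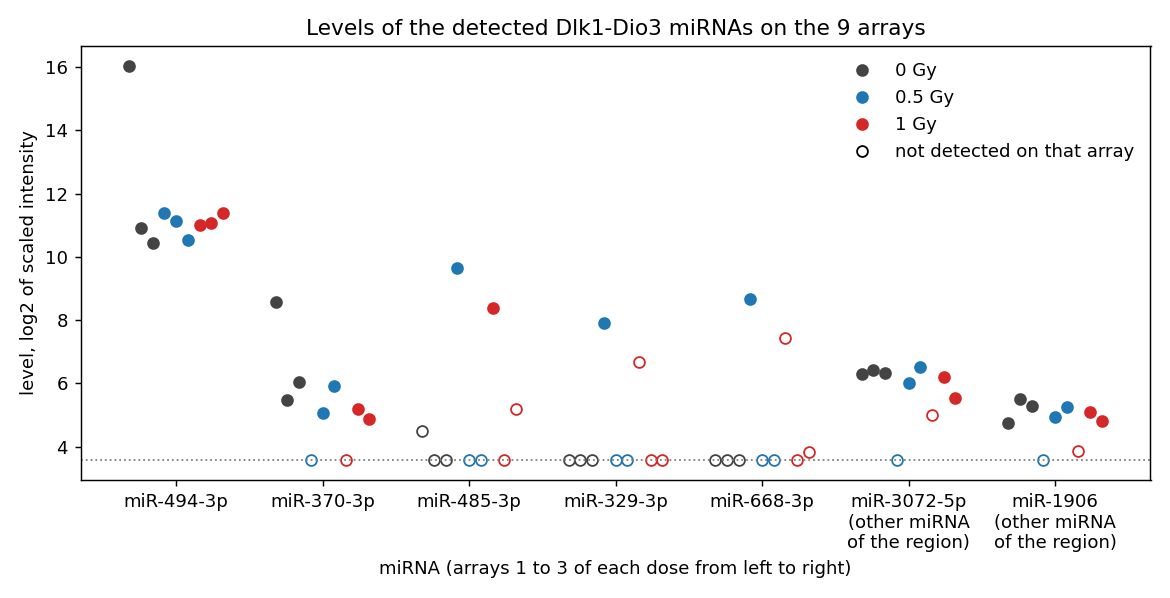
Levels (log2 of the scaled intensity) of the 5 detected members and of 2 further miRNAs of the region on the 9 arrays, arrays 1 to 3 of each dose from left to right within a miRNA. Filled points were detected and open points were not, the dotted line is the floor of 3.57, and array 1 of 0 Gy stands at 16.04 for mmu-miR-494-3p and at 8.58 for mmu-miR-370-3p.

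No dose comparison passed the threshold for any miRNA. Over the 134 miRNAs tested with limma, 0 (0%) had a Benjamini-Hochberg adjusted p under 0.05 between 0.5 and 0 Gy, between 1 and 0 Gy or between 1 and 0.5 Gy, or by the F test over the 3 doses. An unadjusted p under 0.05 was given to 2 (1.49%), 4 (2.99%), 0 and 3 (2.24%) of them. The median difference over all tested miRNAs was -0.47 for 0.5 minus 0 Gy, -0.49 for 1 minus 0 Gy and -0.03 for 1 minus 0.5 Gy. The mean was lower at the higher dose for 96 (71.6%), 100 (74.6%) and 75 (56%) of the 134, and the groups did not overlap for 4 (2.99%), 13 (9.70%) and 1 (0.746%). Of the 134, 94 (70.1%) were tested only because all 3 arrays of 0 Gy detected them, and this filter favours a lower mean after irradiation. With no filter on detection, the 1011 miRNAs above the floor on at least 1 array were fitted. Their median differences against 0 Gy were 0.92 and 0.45. This rule takes in miRNAs above the floor only on the 2 arrays of high background, such as mmu-miR-329-3p. It thereby favours a higher mean after irradiation. The median differences were 0.0087 and 0.14 over the 28 miRNAs detected on all 9 arrays. They were 0.27 and 0.13 without the 2 arrays of high background, and 0.32 and 0.11 with normexp background correction. Directions against 0 Gy thus depend on the filter, on these 2 arrays and on the background correction.

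For mmu-miR-494-3p, limma gave a difference of -1.45 ± 1.23 (log2, SE; 95% interval -4.19 to 1.30; adjusted p = 0.561) for 0.5 minus 0 Gy. The corresponding value for 1 minus 0 Gy was -1.31 ± 1.23 (interval -4.05 to 1.44; adjusted p = 0.543), and that for 1 minus 0.5 Gy was 0.14 (interval -2.61 to 2.89; adjusted p = 0.999). These 3 comparisons share control or irradiated arrays and are not independent. Relative to the median of all tested miRNAs, the first 2 were -0.98 and -0.81. Both turned without array 1 of 0 Gy, to 0.34 ± 0.43 and 0.48 ± 0.43 (adjusted p = 0.892 and 0.837), and quantile normalization moved them to 0.32 and -0.34. With scaling over all probes they were -2.71 and -2.55. Within the slide that held 6 arrays, 2 of each dose, they were -2.27 and -2.04 (adjusted p = 0.676 and 0.6004), with array 1 of 0 Gy among them.

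For mmu-miR-370-3p the difference was -1.85 ± 0.90 (interval -3.87 to 0.17; limma adjusted p = 0.561) for 0.5 minus 0 Gy. It was -2.14 ± 0.90 (interval -4.16 to -0.13; unadjusted p = 0.0394, adjusted p = 0.539) for 1 minus 0 Gy, the second lowest of 134 differences. For 1 minus 0.5 Gy it was -0.29 (interval -2.31 to 1.72; adjusted p = 0.999). This miRNA was tested because all 3 arrays of 0 Gy detected it, and only 2 of 3 arrays did so at each other dose, so the filter favours a lower value after irradiation. Without array 1 of 0 Gy the first 2 differences were -0.91 and -1.20 (adjusted p = 0.892 and 0.837). Without the 2 arrays of high background they were -0.97 and -1.50 (adjusted p = 0.733 and 0.541), and without array 1 of every dose -0.39 and -0.88 (adjusted p = 0.900 and 0.471). Within the slide of 6 arrays, which held array 1 of every dose, they were -2.57 and -3.09 (adjusted p = 0.676 and 0.6004). With normexp background correction they shrank to -0.38 and -0.65. The direction was the same in each of these fits, and the size moved with the arrays numbered 1 and with the background correction.

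The 2 other tested miRNAs of the region gave smaller differences. Like mmu-miR-370-3p, both were tested only through 0 Gy, where all 3 arrays detected them against 2 of 3 at each other dose, so the filter favours lower values after irradiation here too. At 0 Gy mmu-miR-3072-5p stood at 6.29, 6.43 and 6.32, at 0.5 Gy at 3.57 (the floor), 6.02 and 6.52, and at 1 Gy at 4.99, 6.19 and 5.53. The values of 0 and 1 Gy did not overlap, the 3 arrays of 0 Gy lay close together, and the lowest values came from the arrays of high background. The difference was -0.97 ± 0.73 for 0.5 minus 0 Gy and -0.77 ± 0.73 for 1 minus 0 Gy (limma adjusted p = 0.561 and 0.543), and without the 2 arrays of high background it was 0.17 and -0.33. For mmu-miR-1906 the values were 4.74, 5.51 and 5.30 at 0 Gy, 3.57 (the floor), 4.93 and 5.25 at 0.5 Gy, and 3.88, 5.11 and 4.82 at 1 Gy. The differences of -0.60 ± 0.57 and -0.58 ± 0.57 had adjusted p = 0.561 and 0.555 with limma, and without the 2 arrays of high background they were 0.15 and -0.06. Neither of these miRNAs was highest on array 1 of 0 Gy.

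**Figure D3:**
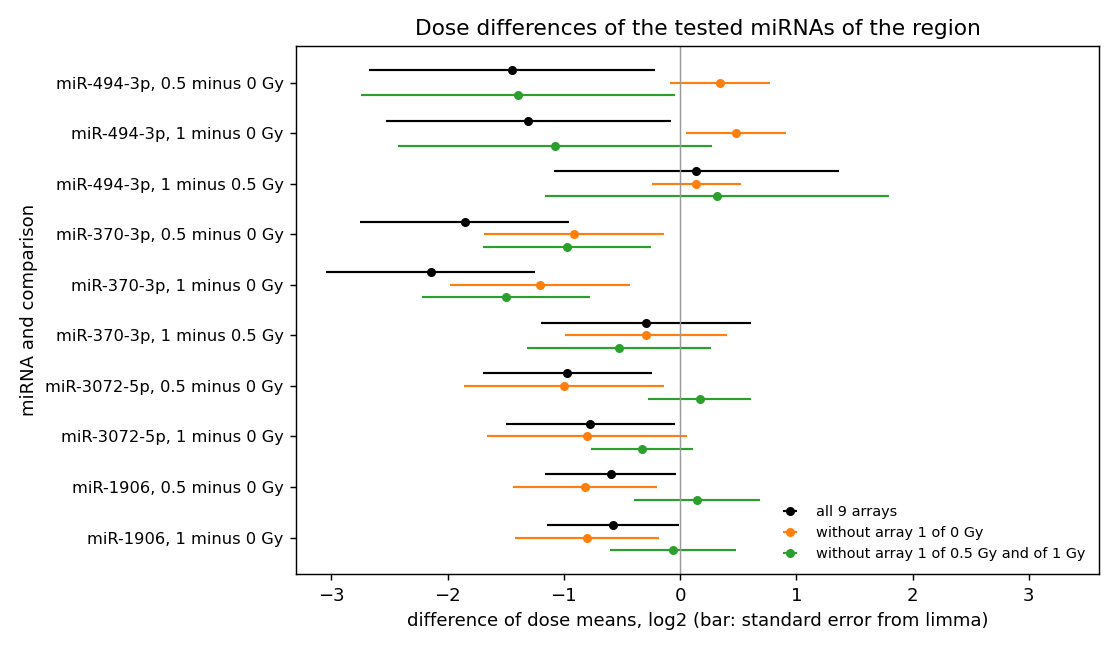
Differences of dose means (log2, with the standard error from limma as the bar) for mmu-miR-494-3p, mmu-miR-370-3p, mmu-miR-3072-5p and mmu-miR-1906, over all 9 arrays and without the arrays that stood apart. The values of mmu-miR-494-3p against 0 Gy lie at -1.45 and -1.31 with all arrays and at 0.34 and 0.48 without array 1 of 0 Gy.

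Across arrays, the miRNAs with the pattern most like that of mmu-miR-494-3p were mmu-miR-6908-5p (Pearson r = 0.98), mmu-miR-7042-5p (0.96), mmu-miR-8117 (0.96), mmu-miR-1224-5p (0.93) and mmu-miR-5622-3p (0.93), over 9 arrays and 134 miRNAs. Without array 1 of 0 Gy these fell to 0.11, 0.19, -0.02, -0.62 and -0.05, so the likeness came from that array. The 5 most like mmu-miR-370-3p were mmu-miR-6385 (0.97), mmu-miR-6238 (0.97), mmu-miR-135a-1-3p (0.97), mmu-miR-7011-5p (0.96) and mmu-miR-7044-5p (0.95), and without array 1 of 0 Gy they were at 0.93, 0.95, 0.91, 0.93 and 0.88. Between mmu-miR-494-3p and mmu-miR-370-3p r was 0.71 over 9 arrays and -0.71 over 8, without array 1 of 0 Gy. Between mmu-miR-370-3p and mmu-miR-1906 it was 0.54 and 0.95. For comparison, the median r over all tested miRNAs was 0.11 with mmu-miR-494-3p and 0.55 with mmu-miR-370-3p over 9 arrays. Without array 1 of 0 Gy these medians were -0.37 and 0.63. All of these correlations describe the arrays, which differ in background, and carry no test.

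The members detected only on arrays of high background came next. The level of mmu-miR-485-3p was 9.64 (array 1 of 0.5 Gy) and 8.39 (array 1 of 1 Gy) where it was detected, and there 25 of 25 and 28 of 29 usable spots were well above background. On the other 7 arrays it was not detected and lay between the floor and 5.21. The level of mmu-miR-329-3p was 7.91 on array 1 of 0.5 Gy, with 18 of 30 spots above background, and that of mmu-miR-668-3p was 8.67 on the same array, with 5 of 29. Each was thus detected on at most 1 of the 3 arrays of a dose, and no fold between doses is given. None of the 3 entered a test, and without the 2 arrays of high background none was detected.

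On these arrays the signal of the dim members followed the bases of the miRNA. Over the 31 members with a sequence that were not tested, the share of C and U in the miRNA and the mean probe signal had a Pearson correlation of 0.80 (array 1 of 0.5 Gy), 0.82 (array 1 of 1 Gy) and 0.79 (array 3 of 1 Gy) on 3 arrays. On the other 6 arrays it was 0.34 to 0.62. Over the 1220 miRNAs with a sequence that no array detected, the same correlation was 0.73, 0.73 and 0.63 on those 3 arrays and 0.10 to 0.42 on the other 6. The relation was thus found outside the region too, and miRNAs on 1 array are not independent replicates.

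The values of single members show the spread. On array 1 of 0.5 Gy, mmu-miR-485-3p (68.2% C and U) averaged 163 scanner units per probe, mmu-miR-329-3p (63.6%) 98.7 and mmu-miR-668-3p (66.7%) 83.5. Just below the call, mmu-miR-434-3p and mmu-miR-337-3p (68.2% each) averaged 71.9 units, and mmu-miR-154-5p (63.6%) averaged 57.6. At the other end, mmu-miR-376a-3p (38.1%) averaged -29.9 units, mmu-miR-380-5p (40.9%) -28.7 and mmu-miR-379-5p (33.3%) -24.0. The 15 members above 0 on that array held 50% to 68.2% of C and U, with a median of 59.1%, and the same 15 were above 0 on array 1 of 1 Gy. The 16 at or below 0 held 33.3% to 61.9%, with a median of 46.5%, and the highest share among them was that of mmu-miR-323-3p (61.9%), which read -10.7 units. Over these 31 members the signals of the 2 arrays had a Pearson correlation of 1.00, and each had 0.95 with array 3 of 1 Gy. Base composition was not tested as a cause of the calls of mmu-miR-485-3p, mmu-miR-329-3p and mmu-miR-668-3p.

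**Figure D4:**
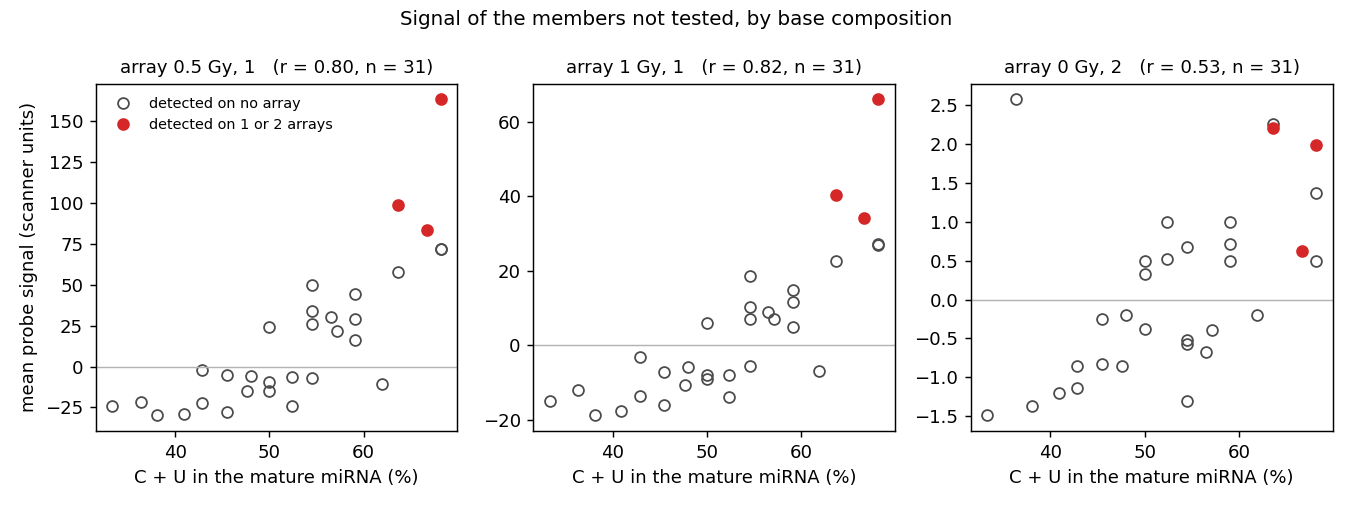
Mean probe signal (scanner units, background-subtracted) of the 31 members that were not tested against the share of C and U in the mature miRNA, on both arrays of high background and on array 2 of 0 Gy, with a separate signal axis for each array. Members detected on 1 or 2 arrays are filled, and they sit at 63.6% to 68.2% of C and U; the correlations are 0.80, 0.82 and 0.53.

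The 2 members with a level on most arrays lay in the lower part of this scale, but not at its end. Their shares fell within the 33.3% to 61.9% held by the 16 members at or below 0 on array 1 of 0.5 Gy. mmu-miR-494-3p holds 40.9% and mmu-miR-370-3p 45.5% of C and U, below the 50% median of the 1608 miRNAs with a sequence. On the 7 arrays of low background, mmu-miR-370-3p read between 6.47 and 126 errors in its brighter probe, and mmu-miR-494-3p between 510 and 26671. On the 2 arrays of high background, mmu-miR-494-3p still read 79.5 and 102 errors, while mmu-miR-370-3p read -0.346 and 0.499. Outside array 1 of 0 Gy, the probes of mmu-miR-370-3p read 13.2 to 30.3 units where it was detected, which compares with additive errors of 19.4 and 11.2 on these 2 arrays. Whether the level of mmu-miR-370-3p was lower on these 2 arrays was not tested.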

How the data were processed

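The intensity values of 9 one-colour Agilent mouse miRNA arrays were deposited as scanner files made with Feature Extraction 11.5.1.1, background-subtracted within each array, with no step between arrays, per the file headers. A deposited series table was not used, because its 9 value columns match no sample title. Outlier spots were left out, spots of a probe were averaged, probes were scaled on each array's 75th percentile over 45 probes and summed per miRNA, and values under 11.9 scaled units (the 1st percentile of detected values) were raised to it before log2. The 134 miRNAs that every array of some dose detected were tested in limma 3.58.1 (lmFit, then eBayes; R 4.3.3) over 9 arrays, 6 residual degrees of freedom, two-sided, Benjamini-Hochberg adjusted at 0.05; code was tested on simulated data. The filter on detection, the small number of arrays and the high background of 2 arrays limit the precision. Members detected on at least 1 array are described on each array, the others by count and range, and the 5 tested miRNAs of highest Pearson r are named. The members, lists, tests and alternatives were chosen with earlier results of these data known. Alternatives changed scaling, background correction (normexp with an offset of 50 was planned on the mean and run on the median spot signal), filter, call, floor, slide and replicate blocks, variance model and arrays. Fits chosen after seeing the data were those within 1 slide, without the 2 arrays of high background, without array 1 of every dose, and with the median of a probe's spots, and all fits reported for mmu-miR-3072-5p and mmu-miR-1906, which were singled out after the data were seen. The header names an older genome build than the gene table, so no coordinates are given.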

Additional observations from a re-analysis of the deposited data

How the results depend on the processing

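The counts of 0 past the threshold stayed at 0 under all 27 alternatives for each pair of doses and all 26 for the F test, with 0 to 19 miRNAs at an unadjusted p under 0.05 and a smallest limma adjusted p of 0.0638. Of 263 differences of the 4 tested miRNAs of the region under alternatives, 248 kept their direction, 15 turned and 0 passed the threshold. The fit with the replicate number as a block gave miR-494-3p -1.45 and -1.31 against 0 Gy (adjusted p = 0.488 and 0.475) and miR-370-3p -1.85 and -2.14 (adjusted p = 0.450 and 0.445), and 0 calls. In deviations from the dose means, same-numbered arrays of 0.5 and 1 Gy correlated at 0.84, 0.75 and 0.59. Those of 0 Gy and an irradiated dose correlated at -0.13 to 0.16. Between 0.5 and 1 Gy, arrays 2 and 3 of unlike number gave 0.58 and 0.55, and unlike pairs with an array 1 gave -0.82 to -0.66. In all, 7 of 9 arrays were most like one of their own number. The labels give only the number, and the main fit did not pair by it. With the block, 1 minus 0.5 Gy was 0.14 for miR-494-3p and -0.29 for miR-370-3p (limma adjusted p = 0.996 for both). With slide as a block the values were -2.22 and -2.08 for miR-494-3p and -2.68 and -2.97 for miR-370-3p.

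For miR-494-3p, quantile normalization turned 0.5 minus 0 Gy to 0.32 and 1 minus 0.5 Gy to -0.66 and gave -0.34 for 1 minus 0 Gy, scaling over all probes gave -2.71 and -2.55 against 0 Gy, and leaving out array 1 of every dose turned the differences against 0 Gy to 0.038 and 0.39. Leaving out 1 array gave -2.46 to 0.34 for 0.5 minus 0 Gy, -2.32 to 0.48 for 1 minus 0 Gy (both highest without array 1 of 0 Gy) and -0.10 to 0.23 for 1 minus 0.5 Gy. For miR-370-3p, 1 minus 0.5 Gy was 0.022 with the floor lowered and -1.07 to 0.24 with 1 array left out, while its differences against 0 Gy were -2.46 to -0.91 and -2.75 to -1.20 with 1 array left out, and -2.68 to -0.38 and -3.09 to -0.65 over all 26 alternatives, smallest with normexp. Normexp turned miR-1906 to 0.43 and 0.18 and miR-3072-5p, at 0.5 Gy, to 0.21, and without the 2 arrays of high background these were 0.15 (miR-1906) and 0.17 (miR-3072-5p) at 0.5 Gy. The share of miR-494-3p differed from 0 Gy by -25.5 to -0.948 and -25.0 to -0.507 percentage points with 1 array left out, smallest without array 1 of 0 Gy, and by 0.204 and 0.409 without array 1 of every dose. The number of members detected was 3 to 5 with 1 array left out (3 without array 1 of 0.5 Gy), 4 with the call in all spots, 6 with the call in at least 1 spot, and 2 without the 2 arrays of high background or without array 1 of every dose. Beyond the arrays left out, the cause of these changes was not tested.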
